A study of Homo sapiens with 4 samples.

Results

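The microRNAs (miRNAs) miR-18a, miR-19a, miR-19b, miR-92, miR-25 and miR-32 belong to, or share a seed with, 3 gene clusters: the miR-17 cluster, also called oncomiR-1, and the miR-106a-363 and miR-106b-25 clusters. They were taken by name: each of the 6 has a human probe on the array, and they are 6 of the 455 human miRNA probes in the files. The rule that names them uses no measured value, though earlier results of these data were known when they were chosen. The cells were LNCaP, a cell line from a human prostate adenocarcinoma, known to grow in response to androgen. Every culture, the untreated one included, was first held for 24 hours in medium with 10% charcoal-stripped serum, which removes androgens, and was then given the synthetic androgen R1881 at 0, 0.1, 1 or 10 nM; 1 Cy3-labelled RNA sample per dose was hybridised to 1 array. With 1 array at each dose there are no replicates, so no error can be put on a ratio between arrays, and a lower signal cannot be divided into less RNA per cell and fewer cells that make it. LNCaP is 1 cell line, and the labels do not give the length of the treatment.

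Apart from miR-32, these miRNAs come from long primary transcripts that hold several hairpins in a row, and each hairpin is then processed to its own mature miRNA of about the same length. The seed, bases 2 to 8 of the mature miRNA, does most of the pairing with target mRNAs, so miRNAs that share a seed share many targets. The miR-17 cluster is known as an oncogenic cluster activated by the transcription factor MYC. MiR-25, from the miR-106b-25 cluster, and miR-32 are known to repress the pro-apoptotic protein BIM, and miR-32 is known as an androgen-regulated miRNA of castration-resistant prostate cancer.

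The mature sequences are shown because they divide the 6 miRNAs into 3 seed groups and show how closely some of them resemble each other. They are RefSeq sequences of build GRCh38.p14, written 5′ to 3′ with the seed in capitals; the array's own probe sequences were not used here, and the older probe names miR-18a, miR-19a, miR-19b, miR-92, miR-25 and miR-32 were matched, 6 of 6, to the RefSeq names miR-18a-5p, miR-19a-3p, miR-19b-3p, miR-92a-3p, miR-25-3p and miR-32-5p.
miR-18a: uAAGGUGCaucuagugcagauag
miR-19a: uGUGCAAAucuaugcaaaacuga
miR-19b: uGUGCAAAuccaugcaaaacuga
miR-92: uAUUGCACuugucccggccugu
miR-25: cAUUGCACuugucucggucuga
miR-32: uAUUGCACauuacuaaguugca
Of 2370 human mature miRNAs in that table, 2 have the seed GUGCAAA, and both are members. The seed AUUGCAC is carried by 6, of which miR-92, miR-25 and miR-32 are members and miR-92b, miR-363 and miR-367 are relatives with probes of their own. The seed AAGGUGC is carried by 3, and the member among them is miR-18a. MiR-19a and miR-19b differ at 1 of 23 bases, U11C, counted from the 5′ end with the base of miR-19a first. MiR-92 and miR-25 are the same at 18 of 22 positions, and miR-92 and miR-32 at 11 of 22. For the closest relatives the sequences are as follows.
miR-18b: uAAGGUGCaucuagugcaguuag
miR-92b: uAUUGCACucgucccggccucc
miR-18b differs from miR-18a at A20U alone, with the base of miR-18a first, and miR-92b from miR-92 at 3 of 22 positions, U10C, G21C and U22C, with the base of miR-92 first.

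On GRCh38.p14, miR-18a is at chr13:91350756-91350778 and miR-19a at chr13:91350939-91350961, both on the plus strand. MiR-19b has copies at chr13:91351245-91351267 on the plus strand and at chrX:134169683-134169705 on the minus strand. MiR-92 has copies at chr13:91351361-91351382 on the plus strand and at chrX:134169544-134169565 on the minus strand. The chromosome 13 copies lie inside the non-coding host gene MIR17HG and the X copies inside MIR106AHG, so a probe for miR-19b or miR-92 reads both clusters together. MiR-25 is at chr7:100093571-100093592 on the minus strand, inside MCM7, a gene of the DNA replication helicase, and miR-32 at chr9:109046272-109046293 on the minus strand, inside TMEM245. Of the 3 clusters, the miR-17 cluster spans 787 bases from the miR-17 to the miR-92a-1 hairpin.

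Signals are intensities on a linear scale. Net signal means an array's signal minus its median signal over the probes with 2 mismatched bases, and a probe was called detected when its signal exceeded that level by about 3 scaled median absolute deviations (MADs) of those mismatch probes. In net signal, that threshold lay between 139 and 151 on the 4 arrays. The arrays detected 47 to 74 human miRNAs, fewest at 0.1 nM, and 3 to 16 mismatch probes, most at 10 nM. For the miRNAs that both the untreated and a treated array detected, treated over untreated net signal had a median of 0.664, 0.987 and 1.08 in order of dose. The epithelial markers miR-200a, miR-200b, miR-200c, miR-141, miR-148a and miR-203 were detected, 6 of 9 in all, and 0 of 6 blood, 0 of 4 muscle and 0 of 4 liver or neuron markers were. The epithelial markers miR-429, miR-375 and miR-205 were not detected on any array. Of 5 stromal and endothelial markers 1 was detected, miR-214. Log2 ratios below are of signals corrected for background and quantile normalised over the 4 arrays, unless net signals are named.

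Of the 6 miRNAs, 3 were above background on at least 1 array: miR-25 on all 4, miR-19b on 3 and miR-92 on 2. MiR-18a, miR-19a and miR-32 were not detected on any array. Over all human probes, 80 of 455 passed the threshold somewhere and 40 did on all 4 arrays. None of the mismatch probes of the 6 was detected on any array, with net signals from -91.5 to 63.5. Brightness depends on the probe as well as on the RNA, so no order of abundance between the miRNAs is drawn from these signals.

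**Figure D1:**
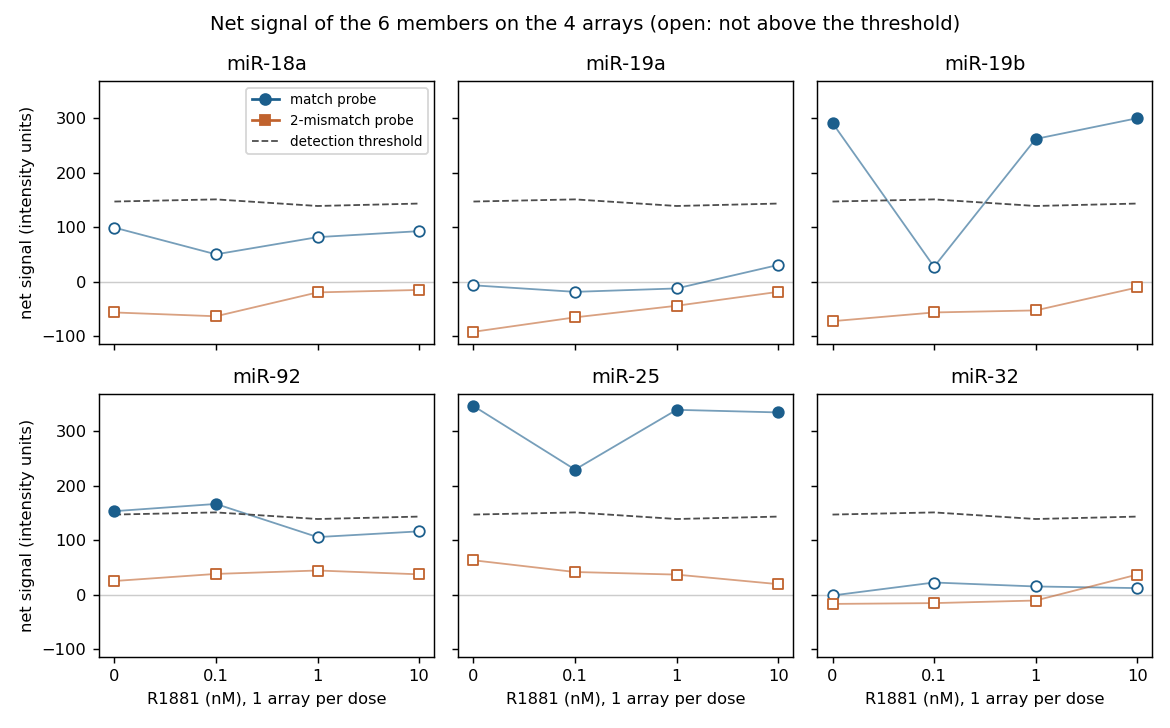
Net signal (intensity units) of the match probe (circles) and the 2-mismatch probe (squares) of each of the 6 miRNAs against R1881 dose, with 1 array per dose; the dashed line is the detection threshold and open symbols are not above it. MiR-25 lies above the line on all 4 arrays, miR-19b drops below it at 0.1 nM, miR-92 lies close to it throughout, and miR-18a, miR-19a and miR-32 stay below it.

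For miR-25 the net signals were 346.25, 229.75, 339.25 and 334.5 in order of dose, from the untreated array upward. The untreated, 1 nM and 10 nM arrays lie close together and the 0.1 nM array is lower, at 66.4% of the untreated net signal. Over the 44 miRNAs that both the untreated and the 0.1 nM array detected, miR-25 included, the median ratio was 0.664. The log2 ratios of miR-25 to the untreated array were 0.07, -0.09 and -0.22 at 0.1, 1 and 10 nM. The SD of the log2 ratios over all miRNAs measured at those doses was 0.60, 0.33 and 0.52, so miR-25 lay within 1 SD of 0 at each dose. That SD is the spread between miRNAs, undetected levels included, and not the error of a ratio. The 10 nM array against the 1 nM array, a pair that leaves out the untreated culture, gave -0.12. Among the human probes miR-25 ranked 37, 34, 40 and 41 by signal on the 4 arrays in order of dose. Its mismatch probe had net signals of 63.5, 42, 37.25 and 19.75, so the match probe exceeded it by 188 to 315.

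MiR-92, which RefSeq names miR-92a-3p, stood at the edge of detection. In order of dose, its net signals were 153.5, 166.75, 106 and 116.5. The untreated and 0.1 nM arrays detected it, at 3.13 and 3.31 MADs above the mismatch median, and the 1 and 10 nM arrays did not, at 2.28 and 2.43 MADs. The arrays on either side of the threshold are thus about 1 MAD apart. The log2 ratios to the untreated array were 0.37, -0.20 and -0.36 in order of dose. At 10 nM, where only the untreated array detected it, the bound as computed is at least 1.17-fold lower. With signals at 3.13 and 2.43 MADs and no error on the ratio, no direction is read from that bound. At 1 nM the bound is under 1-fold and no fold is given. Against the 0.1 nM array, the bounds at 1 and 10 nM were 1.29-fold and 1.51-fold lower. No direction is read from these either. With each array scaled to its median, the ratios of miR-92 to the untreated array were 0.59, -0.57 and -0.44. The medians over all measured miRNAs under that scaling were 0.11, -0.26 and 0.0038. The mismatch probe of miR-92 varied less, with net signals of 25.5, 38.5, 44.75 and 37.75. With that mismatch signal subtracted, the ratios were 0.38, -0.78 and -0.96. The sign at 0.1 nM depended on scaling, since without normalisation the value was -0.06, beside a median of -0.53 over all measured miRNAs.

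The AUUGCAC seed group gave no further signal. MiR-32, whose host gene TMEM245 is on chromosome 9, had net signals of -1, 22.75, 15.5 and 12.5 in order of dose, at most 0.45 MADs above the mismatch median on any array. Its mismatch probe reached 37.25 at 10 nM, above the match probe. The relatives miR-92b, miR-363 and miR-367 were also not detected on any array. MiR-92b, the nearest to miR-92 in sequence, had net signals of 46.75, 99.5, 56.25 and 76, and its mismatch probe was about as bright, with match minus mismatch from -3.25 to 30. MiR-363, from the X cluster, had 14, 62.75, 12 and 17.75. MiR-367, a miRNA of pluripotent stem cells, had -6, -12, -20 and -4.5.

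MiR-19b had the widest range of net signal of the 6. Its net signals were 291.25, 27.75, 262 and 300 in order of dose. The untreated, 1 nM and 10 nM arrays lie close together, and the 0.1 nM array alone is at background, 0.55 MADs above the mismatch median against 5.67 to 6.30 on the others. Its rank by signal among the 455 human probes was 43, 45 and 45 on those other arrays and 242 at 0.1 nM. The mismatch probe was not detected on any array, with net signals of -72, -56, -52.25 and -10.25. Against the untreated array the log2 ratio was -1.61, -0.09 and -0.10 in order of dose. Since the 0.1 nM array did not detect it, the first value is a bound, as computed, of at least 1.15-fold lower. Against the 0.1 nM array, the bounds for the 1 nM and 10 nM arrays were at least 1.08-fold higher each. These bounds rest on the normalised levels and, like the ratios, carry no error. The 10 nM array against the 1 nM array gave 0.00. The 0.1 nM array also detected the fewest miRNAs and was dimmer in general, with a median net signal ratio of 0.664; the part of that dimmer array in the result was not tested.

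MiR-19a, with the same seed and a single base of difference, was at background everywhere. Its net signals were -6.25, -18.25, -12 and 31 in order of dose, and its mismatch probe had -91.5, -65, -43.75 and -18.25. The match probe thus exceeded its mismatch probe on each array, by 31.75 to 85.25, without either passing the threshold. MiR-18a came closest to detection among the 3 undetected members, with net signals of 99.5, 50.5, 82 and 93, or 2.02, 1.00, 1.76 and 1.93 MADs. The lowest of these was on the 0.1 nM array, but signals below the threshold allow no statement on change. The match probe of miR-18a exceeded its mismatch probe by 101 to 156. MiR-18b, from the X cluster, had 0, 26.5, 35.25 and 65, and the passenger strand miR-18a* had 2.75, 69.25, 26.25 and 26.5; neither was detected.

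Of the 3 measured members at 0.1 nM, 1 had a computed ratio past 2-fold downward, miR-19b, and 0 upward. Since that array did not detect miR-19b, its value is only the bound of at least 1.15-fold, and a 2-fold difference is not shown. Of the 65 human miRNAs measured at that dose, undetected levels included, 7.69% had a computed ratio past 2-fold downward and 0% upward. In a restriction chosen after the values were seen, to miRNAs detected on both arrays, 1 of 44 passed downward and 0 upward, and 0 of the 2 members so detected, miR-25 and miR-92, passed. MiR-25 and miR-92 stood at ranks 36 and 53 from the lowest of the 65. At 1 nM, 0 of the 3 members had a computed ratio past 2-fold in either direction, where 1.52% of 66 miRNAs were higher and 0% lower. At 10 nM, 0 of the 3 did, where 3.8% of 79 miRNAs were higher and 1.27% lower. The median log2 ratio over the 3 members was 0.07, -0.09 and -0.22 at 0.1, 1 and 10 nM, beside 0.04, -0.04 and 0.00 over all measured miRNAs. These medians include the levels of miR-19b at 0.1 nM and of miR-92 at 1 and 10 nM, which were not above background. The 3 doses share the untreated array, so these counts are not independent of each other. With 1 array against 1 there is no test of these ratios.

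**Figure D2:**
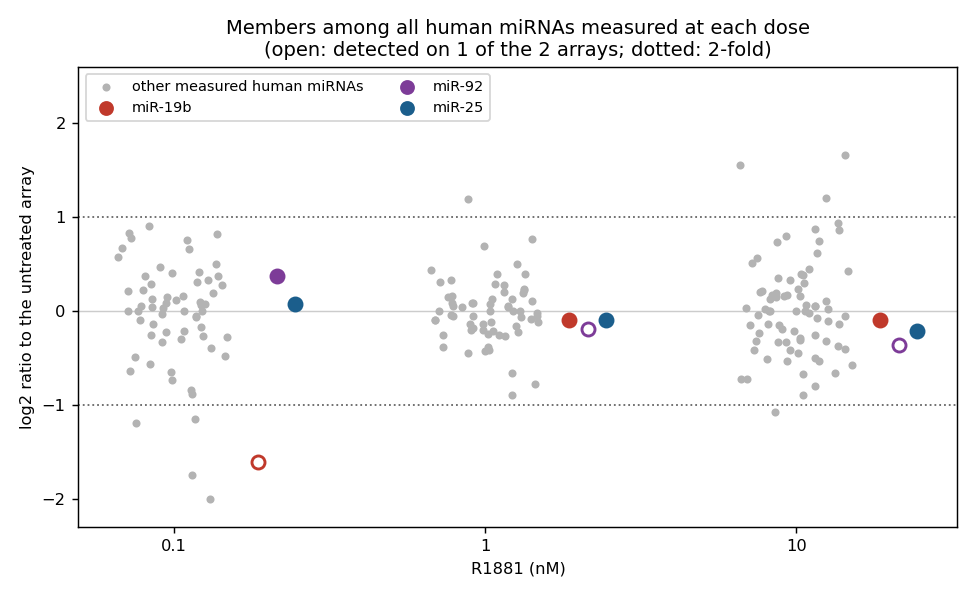
Log2 ratio to the untreated array of every human miRNA detected on at least 1 of the 2 arrays (grey points, spread sideways for legibility), with miR-19b, miR-92 and miR-25 in colour; open circles were detected on 1 of the 2 arrays, and dotted lines mark 2-fold. The open point of miR-19b at 0.1 nM, at -1.61, is computed from a signal at background and stands for a bound of at least 1.15-fold lower; at 1 and 10 nM the 3 miRNAs lie between -0.36 and -0.09, with miR-92 open at both doses.

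A straight line over the 4 dose steps was the one fit that left residual degrees of freedom, 2 of them, and its p-values measure scatter around the line and not the spread between cultures. Limma's adjusted p was under 0.05 for 0% of the 80 miRNAs fitted, with 7 of the 80 at an unadjusted p under 0.05. With so few degrees of freedom, this count does not show that no miRNA changed. The slope per dose step was -0.08 ± 0.07 (SE) for miR-25, with a limma adjusted p of 0.63. It was -0.17 ± 0.11 for miR-92 and 0.12 ± 0.31 for miR-19b, with limma adjusted p-values of 0.548 and 0.92. The wide error of miR-19b comes with its low value at 0.1 nM: without that array its slope was -0.03, and without the untreated array it was 0.76.

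In the clusters that hold these miRNAs, probes named for other hairpins were detected. The list of 12 relatives comprised miR-17-5p, miR-17-3p, miR-20a, miR-106a, miR-18b, miR-20b, miR-363, miR-106b, miR-93, miR-367, miR-92b and miR-18a*, and 6 of the 12 were detected, each on all 4 arrays. All 6 carry the seed AAAGUGC, whose known targets include the cell cycle inhibitor p21. With quantile normalisation none of them reached 2-fold against the untreated array at any dose. MiR-106b at 0.1 nM stood at -1.01 without normalisation and at -1.25 in the authors' deposited table. The median over all miRNAs measured at 0.1 nM was -0.53 without normalisation. For a trend over the doses 0 of the 6 passed in either direction, and the lowest of their limma adjusted p-values was 0.514.

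From the chromosome 13 transcript, miR-17-5p had net signals of 711, 587.5, 895 and 855.5, and miR-20a 682.75, 519.5, 874.75 and 819.5, in order of dose. The log2 ratios at 0.1 nM were 0.57 for miR-17-5p and 0.47 for miR-20a, against 0.37 for miR-92 and the bound of at least 1.15-fold lower for miR-19b. Without normalisation those of miR-17-5p and miR-20a were -0.28 and -0.39, beside a median of -0.53 over all measured miRNAs. On the 0.1 nM array the net signals of miR-17-5p, miR-20a and miR-92 were 82.6%, 76.1% and 109% of the untreated ones, while miR-19b was not detected there. At 10 nM the log2 ratios of the 4 were 0.17, 0.03, -0.10 and -0.36. Each of these lies within 1 SD, 0.52, of 0, where the SD is the spread between miRNAs and not the error of a ratio.

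Of the miRNAs named for the X cluster, miR-106a had net signals of 784, 807, 1182.25 and 998, and miR-20b 470.25, 312.75, 576.25 and 612.5. In mature sequence miR-106a differs from miR-17-5p of chromosome 13 only in the base at the 5′ end, and miR-20b is close to miR-20a. Probes for these may read both clusters together, which was not tested. MiR-363 and miR-18b, also of the X cluster, were not detected. The log2 ratios of miR-106a were 0.77, 0.50 and 0.16 at 0.1, 1 and 10 nM, the first 2 the 4th highest of 65 and the 4th highest of 66 measured miRNAs. Without normalisation its ratio at 0.1 nM was 0.00, beside a median of -0.53 over all measured miRNAs. The mouse probe of miR-106a gave -0.46, 0.20 and 0.43, so at 0.1 nM it lay on the other side of 0. Whether that mouse probe matches the human miR-106a sequence was not tested. The log2 ratios of miR-20b were 0.21, 0.27 and 0.07. From the chromosome 7 cluster inside MCM7, miR-106b had 462.25, 195, 361.25 and 310.5, and miR-93 had 240.5, 271.25, 296.75 and 340.5. The log2 ratios at 10 nM were -0.54 for miR-106b, 0.19 for miR-93 and -0.22 for miR-25. The human probes of this 1 transcript thus lay on both sides of 0 at 10 nM, with miR-93 alone above it. The mouse probe of miR-93 gave -0.13 at 10 nM, below 0 as for miR-106b and miR-25, so the split there depends on the probe. At 0.1 nM the human probes lay on both sides as well, at -0.34, 0.75 and 0.07, and without normalisation at -1.01, 0.03 and -0.52. The mouse probe of miR-93 gave 0.42 at 0.1 nM.

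**Figure D3:**
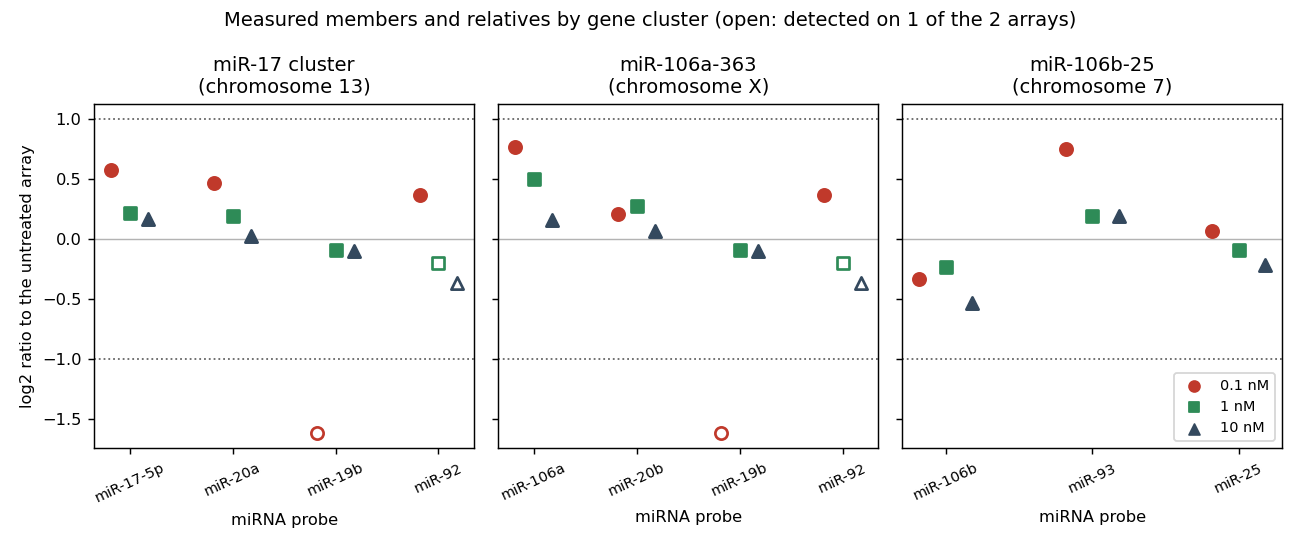
Log2 ratio to the untreated array at 0.1 nM (circles), 1 nM (squares) and 10 nM (triangles) for the measured probes of each gene cluster; miR-19b and miR-92 have copies in 2 clusters and appear in both panels, open symbols were detected on 1 of the 2 arrays, and dotted lines mark 2-fold. The filled points all lie within 2-fold of the untreated array, the open point of miR-19b at 0.1 nM stands for a bound of at least 1.15-fold lower, and the 3 human probes of miR-106b-25 lie on both sides of 0 at each dose. The mouse probe of miR-93, not shown, gave 0.42, -0.06 and -0.13 at 0.1, 1 and 10 nM.

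The miRNAs most like each measured member were sought among the 79 other detected human miRNAs, by the root mean square difference of log2 levels over the 4 arrays, each centred on its own mean. MiR-25 was closest to miR-107, at 0.03 log2, and miR-125a, at 0.05. MiR-92 was closest to miR-210, at 0.06, and let-7b, at 0.07. MiR-19b was closest to miR-29b, at 0.19, and miR-100, at 0.21, with net signals at 0.1 nM of 144 and 750.75, against 946.25 and 3038.25 untreated. Chosen for their likeness to miR-19b, both were lowest on the 0.1 nM array, where miR-29b was below the threshold of 151. None of these 6 was in the list of relatives. With 4 arrays, likeness in this sense is a description.

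The ratios were set side by side under other ways of processing. For miR-19b at 0.1 nM, where that array did not detect it, the computed log2 ratio was -0.81 without background correction. Median centring gave -1.11 and no normalisation -1.76, and with its own mismatch signal subtracted the ratio was -2.15. MiR-25 at 0.1 nM turned from 0.07 to -0.52 without normalisation. Over all 65 miRNAs measured at that dose, the median likewise went from 0.04 to -0.53. The ratios of miR-92 at 1 and 10 nM rest on arrays that did not detect it, so their sign under each setting is not read as a direction.

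**Figure D4:**
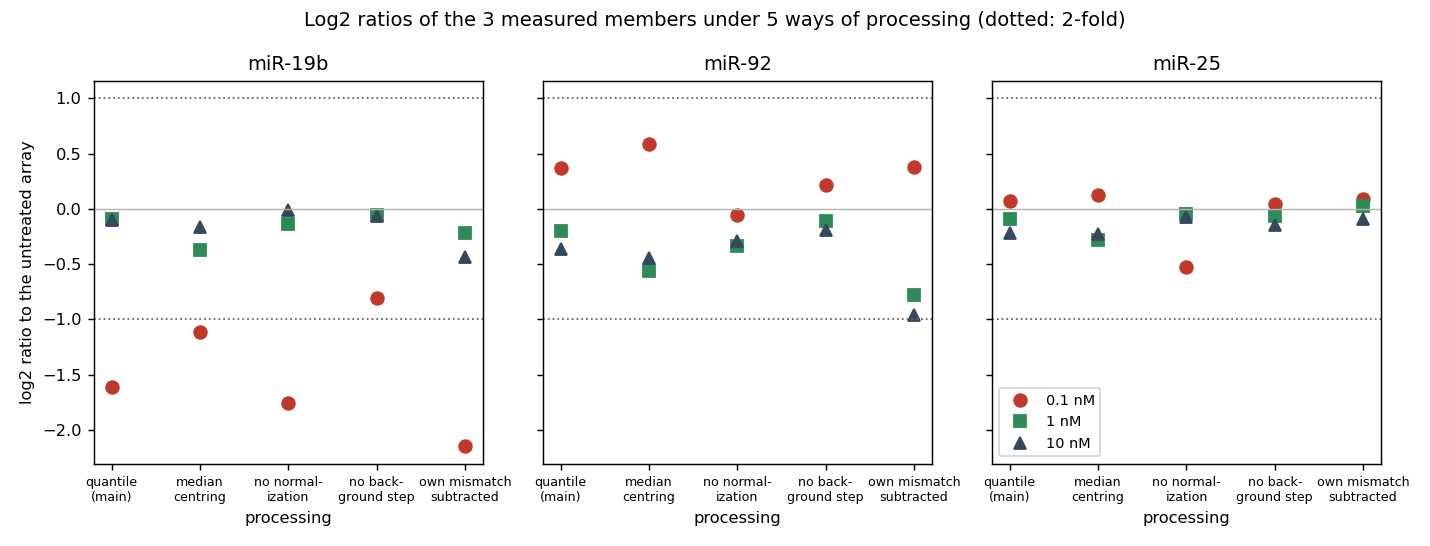
Log2 ratio to the untreated array of miR-19b, miR-92 and miR-25 at 0.1 nM (circles), 1 nM (squares) and 10 nM (triangles) under 5 ways of processing the signals, with dotted lines at 2-fold. The computed ratio of miR-19b at 0.1 nM, against a signal at background, ranges from -2.15 to -0.81. MiR-25 at 0.1 nM changes sign without normalisation, as does the median over all measured miRNAs, from 0.04 to -0.53. The ratios at 1 and 10 nM stay within 2-fold of the untreated array for all 3.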

How the data were processed

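Per the file headers, each deposited array table lists a mean signal for every probe, which is a linear intensity; scanner and image software are not named. In the authors' deposited value table each intensity is reduced by 1 constant per array, equal to the median of the mismatch probes, with dim cells empty; no log step or scaling between arrays was found in its values. Mismatch probes listed at 0 (3 to 7 per array) were treated as missing in the threshold and the correction. Signals were corrected with normexp (offset 50) in limma 3.58.1 under R 4.3.3, then quantile normalised over the match probes of every species and read as log2. Detection was the mismatch median plus 3 scaled MADs. A miRNA was measured in a pair of arrays if either detected it. Where only 1 of the 2 arrays detected it, the brighter level was set against the lowest detected level on the other array, or its own level if higher, and given as "at least". Trends were fitted with lmFit and eBayes on dose steps, two-sided, adjusted by Benjamini-Hochberg over 80 miRNAs, and the fit was tested on simulated data. Named miRNAs are the 6 members, 12 listed relatives, the 2 miRNAs closest to each detected member, the detected cell type markers and the epithelial markers not detected. The members and lists were chosen with earlier results of these data known. The number of arrays, 4, limits the precision.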

Additional observations from a re-analysis of the deposited data

How the results depend on the processing

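Values are median log2 ratios to the untreated array over the members each setting measures, beside 0.07, -0.09 and -0.22 at 0.1, 1 and 10 nM. At 0.1 nM they were 0.045 without background correction, 0.12 with median centring, -0.52 without normalisation and 0.094 after subtraction of the own mismatch probe. Over all 65 measured miRNAs the median at 0.1 nM was 0.11 with median centring and -0.53 without normalisation. The authors' deposited table, in which miR-25 alone is filled on both arrays, gave -0.59. Detection at 2 MADs gave -0.25 over 4 members. Detection at 5 MADs gave -0.77 over 2 members, miR-25 and miR-19b, of which miR-19b was at background at 0.1 nM. All 6 members without a filter, undetected ones included, gave -0.19. Restricting to members detected on both arrays of the pair, an alternative chosen after seeing the data, gave 0.22 at 0.1 nM and -0.16 at 10 nM. At 1 nM they were -0.063 without background correction, -0.37 with median centring (all measured miRNAs: -0.26), -0.14 without normalisation and -0.22 after that subtraction. At 10 nM they were -0.15, -0.23, -0.076 and -0.43 under the same settings, -0.0036 in the authors' deposited table, -0.21 and -0.16 with detection at 2 and 5 MADs, and -0.15 without a filter. The count of 1 member with a computed ratio past 2-fold at 0.1 nM, miR-19b, a bound that does not itself show 2-fold, became 0 without background correction, in the authors' deposited table and among miRNAs detected on all arrays or on both of the pair; the last 3 do not hold miR-19b at that dose by their construction. At 1 and 10 nM the count was 0 under every alternative, a 1.5-fold threshold included. Limma called 0 miRNAs for a dose trend under all 14 alternatives, which fitted 37 to 455 miRNAs. Of those fitted, 0 to 47 had an unadjusted limma p under 0.05, with the 47 among the 455 without a filter. The fits had 2 residual degrees of freedom, and fewer where an array was left out. The repeated count of 0 therefore does not show that no miRNA changed, and a straight line describes a drop at 0.1 nM alone poorly. The lowest limma adjusted p of a member over the alternatives was 0.162, for miR-92. Leaving out 1 array at a time gave 0 calls each; without the untreated array the slope of miR-19b was 0.76, and without the 0.1 nM array it was -0.03. No paired analysis was possible because each dose has 1 array. Signals within 3 MADs of the mismatch median, those of 3 members throughout, allow no statement on change.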

Other observations

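No mouse or rat probe on the array carries the name of a member, so each member was read by 1 match probe alone. Among the relatives, 7 such probes exist. The mouse probe of miR-93 had net signals of 358.25, 310.25, 353.75 and 389.75 in order of dose, with log2 ratios to the untreated array of 0.42, -0.06 and -0.13, where the human probe had 0.75, 0.19 and 0.19. The mouse probe of miR-20b had ratios of 0.17, 0.38 and 0.45, where the human probe had 0.21, 0.27 and 0.07. The rat probe of miR-20b had -0.35, 0.14 and 0.29, and the 0.1 nM array did not detect it. At 0.1 nM the mouse and human probes of miR-106a gave -0.46 and 0.77, which is 1.23 apart, the widest gap among the 4 pairs of such probes in which the untreated array detected both. Whether the mouse and rat probes match the human sequences was not tested, so a gap need not be a disagreement over the same RNA.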
